A study of Mus musculus with 2 samples.

Results

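B cells in subcutaneous 4T1 tumours were defined by their transcripts, as 1302 of the 9313 kept barcodes of a treated library and 548 of the 8433 kept barcodes of a PBS library, 1850 of 17746 in all. A barcode stands for the contents of a droplet, in most cases a single cell, and a UMI (unique molecular identifier) for a captured RNA molecule. Kept barcodes had at least 200 genes and at most 20% mitochondrial UMIs. A member had at least 2 UMIs, and at least 0.1% of its UMIs, from Cd79a, Cd79b, Pax5, Ebf1, Bank1 and Blk together. It had no Cd3d, Cd3e or Cd3g UMI, fewer than 5 C1qa, C1qb and C1qc UMIs and fewer than 5 Jchain UMIs. Levels of these genes therefore describe the choice and are no finding.

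4T1 is a mouse mammary carcinoma cell line. The treated mouse or mice received phototherapy mediated by a material labelled AIE COF, and the control received PBS (phosphate-buffered saline); whether the control tumours were illuminated is not given. Tumours of both groups were taken 7 days after phototherapy and sequenced from the 3′ end with a droplet kit. The labels write the mouse strain as C57BL/c, a name that was not resolved here, and do not say how many mice or tumours went into each suspension. Each group is 1 library, so there is no replicate check: no test was made, and every interval is a 95% exact interval that covers counting error only. The treated file holds 115576457 UMIs over 10002 barcodes and the PBS file 145045294 over 8962. The libraries shared 39 barcode sequences; 7 of these were members in at least 1 library and 0 were members in both.

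B cells make antibody. Their antigen receptor is a membrane immunoglobulin held by the signalling chains Cd79a (Ig-alpha) and Cd79b (Ig-beta); Blk is a Src-family kinase and Bank1 a scaffold of that pathway, while Ebf1 and Pax5 are transcription factors that set and hold B identity. Naive follicular B cells carry IgM and IgD, made from the same primary transcripts, together with the low-affinity IgE receptor Fcer2a (CD23), and marginal zone B cells carry high levels of the complement receptor Cr2 (CD21). In tumours, B cells can gather with T cells in lymphoid aggregates called tertiary lymphoid structures, which the title of the study names. Ebf1 is also known from cells of mesenchymal origin.

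The label was checked against B genes that the rule did not use, and the members proved to be a mixture. When Ebf1 was left out of the score and the other 5 genes had to meet the same limits, 1060 treated and 343 PBS members remained, called 5-gene members below. A further 132 treated and 164 PBS members held no UMI of the other 5 genes and entered on Ebf1 alone, called Ebf1-only members. The remaining 110 treated and 41 PBS members held UMIs of the other 5 genes below the limits. This division was made after the values were seen. The Ebf1-only members were 10.1% of treated and 29.9% of PBS members, but held 31.2% of the treated and 70.0% of the PBS members' UMIs, because many were deep: their median was 2136 UMIs in the treated library and 4905 in the PBS library, against 1202 and 1523 for the 5-gene members. Of the Ebf1-only members, 27 treated and 66 PBS barcodes had over 10000 UMIs, against 2 and 1 of the 5-gene members.

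**Figure D1:**
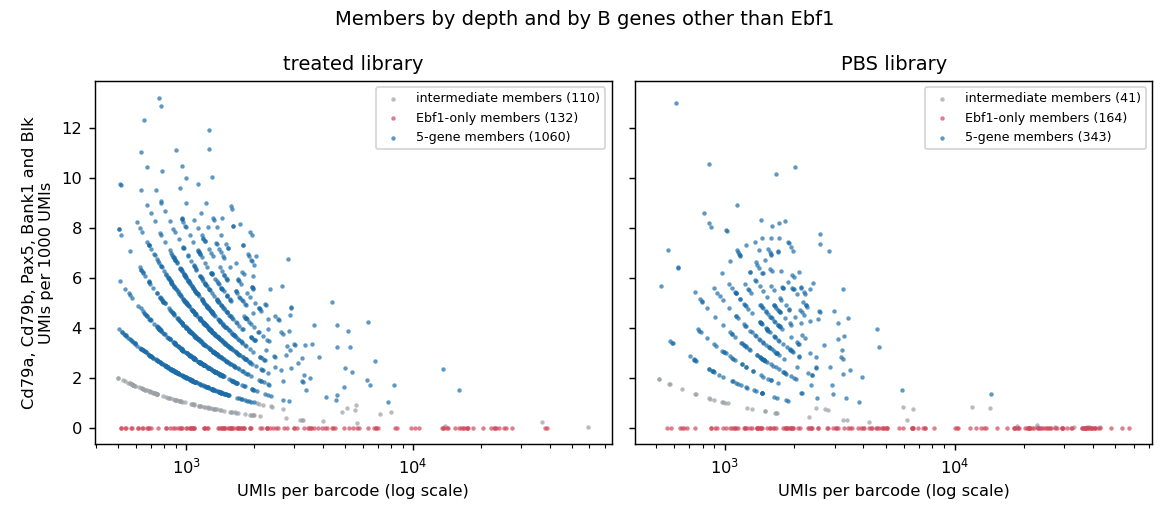
Each point is a member, by its UMIs (log scale, horizontal) and its UMIs of Cd79a, Cd79b, Pax5, Bank1 and Blk per 1000 UMIs (vertical), in the treated (left) and PBS (right) library. The 132 treated and 164 PBS Ebf1-only members lie at 0 and reach past 10000 UMIs, where 2 treated and 1 PBS 5-gene members lie.

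Genes outside the rule set these components apart. Every barcode was thinned at random to 500 UMIs for shares of barcodes with a UMI, since 500 is the lowest total in either file. Ighm, the IgM heavy chain, was found in 42.3% of treated and 42.0% of PBS 5-gene members and in 9.85% and 1.22% of Ebf1-only members. It was found in 4.05% of treated and 3.02% of PBS T barcodes (at least 2 Cd3 UMIs), which should lack it, and these shares are read as background. The invariant chain Cd74, a chaperone of class II molecules, was found in 96.9% and 97.1% of 5-gene members and in 31.8% and 6.71% of Ebf1-only members. Ptprc, the pan-leukocyte gene that encodes CD45, was found in 47.3% and 42.3% of 5-gene members and in 20.5% and 2.44% of Ebf1-only members. The 5-gene members thus carried B and leukocyte genes in both libraries, and the PBS Ebf1-only members were not above the background for Ighm. Cd74 was found in 4.44% of PBS T barcodes. T cells carry Ptprc, found in 55.1% of PBS T barcodes, so these give no background for it.

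Genes of the tumour and its matrix ran the other way. Levels are given as CPM, the UMIs of a gene per 1000000 UMIs of the summed set; the reads come from the 3′ end, so no gene length enters. Rhox5, a homeobox gene, stood at 446 CPM in treated and 502 CPM in PBS Ebf1-only members, at 59.9 and 63.1 CPM in 5-gene members and at 281 and 326 CPM in T barcodes. In barcodes with no Ptprc UMI and at least 10000 UMIs it stood at 780 and 734 CPM. Hmga2, a chromatin protein, was at 220 and 183 CPM in Ebf1-only members, at 26.1 and 35.0 CPM in 5-gene members and at 153 and 163 CPM in T barcodes, so its level set the PBS Ebf1-only members little apart from T barcodes. After thinning it was found in 9.09% and 13.4% of Ebf1-only members and in 2.17% and 2.86% of T barcodes. Col3a1, a fibrillar collagen, was at 5214 and 4516 CPM against 72.2 and 210 CPM. Col5a2, Col1a2, Postn, Aebp1, Rora, Osmr and F3 headed the genes that were higher in Ebf1-only than in 5-gene members of both libraries. Ebf1 itself, after thinning, was found in 5.51% of treated and 5.98% of PBS Ptprc-negative barcodes, against 1.51% and 1.11% of T barcodes. Treated Ebf1-only members also held B genes above the background: after thinning Iglc2 was found in 9.85% of them, Ighd in 9.09% and Ly6d in 6.82%, against 0.0942%, 0.282% and 0.188% of treated T barcodes. In PBS Ebf1-only members these shares were 1.83%, 1.22% and 0.610%, from 3, 2 and 1 barcodes, against 0.159%, 0% and 0.159% of PBS T barcodes. The label of B cells therefore held for the 5-gene members, for some of the treated Ebf1-only members and for few of the PBS ones, and results are given for 5-gene members with the values of all members beside them.

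**Figure D2:**
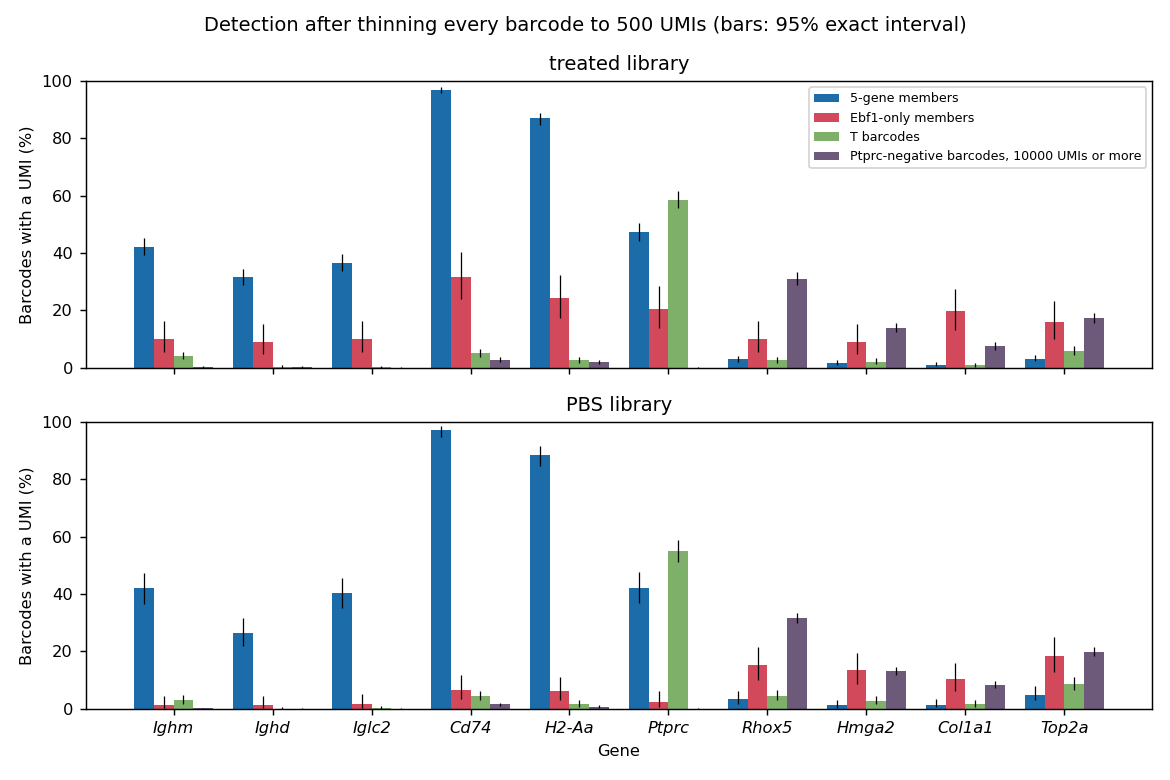
Bars give the percent of barcodes with a UMI of each gene after thinning to 500 UMIs, in 4 sets of barcodes of the treated (top) and PBS (bottom) library, with 95% exact intervals of counting error. Immunoglobulin genes, Cd74, H2-Aa and Ptprc are high in 5-gene members, and Rhox5, Hmga2, Col1a1 and Top2a are higher in Ebf1-only members.

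Many PBS members lay close to the limit on the share of UMIs. A score of exactly 2 let in 70 treated and 44 PBS barcodes, and 61 and 33 missed with a score of 1. Between 0.1% and 0.15% of UMIs lay 65 treated and 100 PBS members, and between 0.05% and 0.1% lay 168 and 262 barcodes outside. The Cd3 limit kept out 60 treated and 16 PBS barcodes that met the other limits, the C1q limit 16 and 7 and the Jchain limit 15 and 2. Up to 4 C1q UMIs were held by 163 treated and 83 PBS members. Scrublet, a doublet caller, gave one of its highest scores to 2.17% of treated and 1.46% of PBS 5-gene members, and to 7.58% and 3.05% of Ebf1-only members. Among members in neither of these sets the shares were 12.7% and 14.6%. Among kept barcodes that were not members they were 8.08% and 7.01%.

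The 5-gene members took a larger share of the treated library. They were 1060 of 9313 kept barcodes, 11.4% (10.7 to 12.0), in the treated library and 343 of 8433, 4.07% (3.66 to 4.51), in the PBS library, a ratio of 2.80 (2.48 to 3.17). All members together were 14.0% (13.3 to 14.7) and 6.50% (5.98 to 7.05), a ratio of 2.15 (1.95 to 2.38). The Ebf1-only members went the other way, with 1.42% of treated and 1.94% of PBS barcodes and a ratio of 0.729 (0.575 to 0.922). A share depends on the other cells of the suspension, and Ptprc-negative barcodes of at least 10000 UMIs were 18.1% of the treated and 30.3% of the PBS kept barcodes. Over barcodes with a Ptprc UMI, 5-gene members were 13.5% of 5782 treated and 7.55% of 3537 PBS barcodes, a ratio of 1.79 (1.55 to 2.06). Set against T barcodes alone, 5-gene members were 1060 of the 2122 treated and 343 of the 973 PBS barcodes of both sets, a ratio of shares of 1.42 (1.25 to 1.61).

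The gap was widest among shallow barcodes. Of the 1201 treated barcodes with 500 to under 1000 UMIs, 26.5% were 5-gene members, against 5.42% of 849 in the PBS library. From 1000 to under 2000 UMIs the shares were 30.5% of 2130 and 17.5% of 1306, and from 2000 to under 5000 UMIs 4.79% of 1690 and 4.23% of 1560. Of the treated 5-gene members, 30.0% had fewer than 1000 UMIs, against 13.4% of the PBS ones. With only barcodes of at least 1000 UMIs the ratio was 2.34 (2.04 to 2.68). Depth and treatment cannot be told apart with 1 library per group.

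The 5-gene members expressed the genes of mature B cells in both libraries. The first 3 genes by their level over all other kept barcodes, leaving out the genes of the rule, were Ly6d, a surface protein of lymphoid cells, Fcmr, the IgM Fc receptor, and the lambda constant gene Iglc2. Ly6d stood at 993 CPM in treated and 932 CPM in PBS 5-gene members and at 3.81 and 1.59 CPM in the other barcodes. Fcmr stood at 430 and 466 CPM against 1.82 and 0.463 CPM. Then came Vpreb3, Ighd, Hs3st1, Tnfrsf13c (the BAFF receptor), Chst3, Fcrl1, Fcer2a and Cd22, an inhibitory receptor of B cells. Of 2871 genes compared, 345 (12.0%) were at least 5-fold higher in 5-gene members than in other kept barcodes in both libraries, and of 2952 compared in all members, 53 (1.80%). The cells were chosen for B genes, so these levels describe them and are not tested.

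Some marker genes of other B cell states had few UMIs in 5-gene members, and others did not. The regulatory cytokine Il10 had 0 UMIs in 5-gene members of both libraries, and 479 and 411 UMIs in the other kept barcodes. A count of 0 allows up to 3 UMIs of the 1453463 UMIs of treated and 570635 of PBS 5-gene members. Cd5, a B1 marker, had 4 UMIs in treated and 0 in PBS members. Rag1, Rag2 and Igll1, which mark B progenitors, had 0 UMIs in every kept barcode, so nothing is read from them. The plasma cell factor Prdm1 had 9 and 1 UMIs, and Bcl6, the germinal centre repressor, 78 and 27. Other genes listed for such states were higher. Mzb1 stood at 281 CPM in treated and 272 CPM in PBS members, Cd24a at 251 and 209 CPM and Cd38 at 191 and 219 CPM. The plasma cell list summed to 1512 and 1418 CPM and the germinal centre list to 1157 and 845 CPM. The memory list summed to 893 and 860 CPM and the transitional list to 550 and 505 CPM. These states are thus not excluded. Markers of other cells were low: the T cell list summed to 58.5 CPM in treated and 35.0 CPM in PBS members, with Cd3e at 0 by the rule, the natural killer list to 13.8 and 29.8 CPM, and the neutrophil list to 8.26 and 8.76 CPM. The macrophage list summed to 589 and 440 CPM, the fibroblast list to 198 and 464 CPM and the tumour list to 756 and 1180 CPM. Krt8 and Krt18, on the tumour list, had at most 24 UMIs over all other kept barcodes of a library and are not informative here.

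Receptor genes of the 5-gene members are given by library. Cd79a, Cd79b, Pax5, Bank1 and Blk chose these members, so their levels are a description only. Cd79a stood at 1224 CPM in treated and 1477 CPM in PBS members, and Cd79b at 612 and 648 CPM. Pax5 stood at 896 and 839 CPM, Bank1 at 859 and 794 CPM and Blk at 239 and 259 CPM. Ighm stood at 1110 and 1200 CPM, a log2 ratio of -0.12 (-0.24 to 0.02), and Ighd at 729 and 733 CPM, a log2 ratio of -0.01 (-0.17 to 0.16). In all members the same ratios were 1.53 for Ighm and 1.65 for Ighd, where the Ebf1-only members hold 70.0% of the PBS UMIs and had 14 Ighm and 4 Ighd UMIs there. In GRCm38 (GENCODE M21) Ighm lies on the minus strand at chr12:113418558-113422730 and Ighd just downstream at chr12:113406604-113416324. Both are read from the same direction and partly from the same transcripts, so 3′ UMIs tell them apart only by their own ends.

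Of the light chain constant genes, Iglc2 alone had UMIs. Igkc, Iglc1 and Iglc3 are listed at 0 in every kept barcode of both libraries, as is Ms4a1 (CD20), a standard B marker. In GENCODE M21 each of these 4 genes lies inside another annotated gene, Igkc inside Gm30211 on the same strand, Iglc1 and Iglc3 inside 2010309G21Rik and Ms4a1 inside 4930526L06Rik; no source used here says how the counting treated such overlaps. Kappa and lambda cells thus cannot be separated in these counts. Iglc2 was found after thinning in 36.7% of treated and 40.2% of PBS 5-gene members and in 0.0942% and 0.159% of T barcodes. Unthinned, 37.7% of treated members had no Iglc2 UMI, 27.5% had 1 and 28.8% had 2 to 4. A further 5.38% had 5 to 9 and 0.566% had 10 or more, with 17 as the highest. In PBS members 32.1% had none, 21.9% had 1, 36.2% had 2 to 4, 8.16% had 5 to 9 and 1.75% had 10 or more, with 32 as the highest. Members with 5 to 9 UMIs held 24.2% of the treated and 26.8% of the PBS Iglc2 UMIs. Those with 10 or more were 6 barcodes in each library. Whether the high counts form a separate group cannot be read from these ranges.

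Variable genes were sparse and spread. Heavy chain variable genes gave 144 UMIs over 56 of 185 listed genes in treated members and 52 UMIs over 35 genes in PBS members. The leading gene, Ighv10-1, held 13 UMIs (9.03%) in treated members, and Ighv1-9 held 6 (11.5%) in PBS members. Kappa variable genes gave 123 and 43 UMIs, led by Igkv1-110 in both libraries with 20 and 6. Lambda variable genes gave 50 and 14 UMIs, of which Iglv3 held 49 and 14. No variable gene held more than 6 UMIs in PBS members other than Iglv3, and counts at this depth cannot show clonal growth or its absence.

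Ighd, read as a mark of naive cells, was found after thinning in 31.7% (28.9 to 34.6) of treated and 26.5% (21.9 to 31.5) of PBS 5-gene members, a ratio of 1.19 (0.945 to 1.52). Unthinned, it was found in 54.2% and 59.8%, a ratio of 0.906 (0.771 to 1.07). Both intervals hold 1, and the direction turned with the depth. In T barcodes, with median depths of 1936 and 2940 UMIs before thinning, Ighd was found in 0.282% and in 0 of 630, which allows up to 0.476%. Over all members the share was 27.8% (25.4 to 30.3) in treated and 17.7% (14.6 to 21.2) in PBS, a ratio of 1.57 (1.25 to 1.99). That larger gap was present where Ebf1-only members were 10.1% of treated and 29.9% of PBS members.

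Fcer2a was found after thinning in 9.72% (8.0 to 11.7) of treated and 11.7% (8.46 to 15.5) of PBS 5-gene members, a ratio of 0.833 (0.573 to 1.23). Unthinned, it was found in 20.1% and 28.3%, a ratio of 0.711 (0.556 to 0.913), and its level was 186 and 247 CPM, a log2 ratio of -0.41 (-0.71 to -0.10). Thinned to 1000 UMIs, which leaves 742 treated and 297 PBS members, the shares were 16.3% and 22.6%, a ratio of 0.723 (0.532 to 0.989). Cr2 was found after thinning in 8.40% (6.80 to 10.2) and 10.8% (7.71 to 14.6), a ratio of 0.778 (0.525 to 1.18), and its level was 185 and 247 CPM, a log2 ratio of -0.42 (-0.72 to -0.11). Per UMI both genes were thus lower in treated members, by ratios of 0.755 and 0.749 that fall short of 1.5-fold, and their shares at 500 UMIs had intervals that hold 1. Thinned to 1000 UMIs the Cr2 shares were 15.6% and 16.2%, a ratio of 0.967 (0.685 to 1.38). In T barcodes both were found in 0 of 1062 treated and 0 of 630 PBS barcodes after thinning, and over all members the ratios were 1.10 for Fcer2a and 1.01 for Cr2.

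Whether these genes mark separate groups of 5-gene members cannot be read at this depth. After thinning, Ighm was found in 44.9% of treated members with an Ighd UMI and 41.0% of those without, and in 44.0% and 41.3% of PBS members. Cr2 was found in 11 of 103 treated members with Fcer2a, 10.7%, and in 8.15% of those without; in PBS members it was found in 4 of 40 and in 10.9%. Unthinned, Cr2 was found in 21.8% of treated members with Ighd and 15.6% of those without, and in 28.8% and 18.8% of PBS members, where members with Ighd were also deeper, with medians of 1265 against 1128 and 1622 against 1408 UMIs. Unthinned members without any Ighd or Ighm UMI were 164 treated and 44 PBS, and were shallower, with medians of 1040 and 1220 UMIs against 1230 and 1577.

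Switched cells were rare. Members with at least 2 UMIs of Ighg1, Ighg2b, Ighg2c, Ighg3, Igha and Ighe and no Ighd UMI were 5 treated and 3 PBS, all of them 5-gene members: 0.472% (5 of 1060) and 0.875% (3 of 343), a ratio of 0.539 (0.105 to 3.47). After thinning 1 treated and 0 PBS members were left. Ighg1 had 32 UMIs in treated and 7 in PBS 5-gene members, and 35 and 9 UMIs in T barcodes. A difference in switching was not detectable at this depth.

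Dividing cells differed between the members as a whole and the 5-gene members. Cycling was called from at least 3 detected genes among Mki67, Top2a, Cdk1, Ccna2, Ccnb2, Birc5, Tpx2, Nusap1, Rrm2 and Tyms. Of all members, 72 treated (5.53%) and 99 PBS (18.1%) were cycling, a ratio of 0.306 (0.223 to 0.419). Of the 5-gene members, 22 treated (2.08%) and 7 PBS (2.04%) were, a ratio of 1.02 (0.420 to 2.82). After thinning, 6 and 1 5-gene members met the call. Without the barcodes of the highest Scrublet scores, 14 of 1037 treated and 6 of 338 PBS 5-gene members met it, a ratio of 0.761 (0.275 to 2.41). The levels that follow include those barcodes. In the cycling 5-gene members Hmgb2, a chromatin protein of dividing cells, stood at 1965 CPM in treated and 1995 CPM in PBS, against 328 and 320 CPM in the rest. Satb1, a chromatin organiser of resting lymphocytes, stood at 311 and 292 CPM against 1763 and 1220 CPM, and Fcer2a had 2 and 1 UMIs. The part of free RNA and of doublets in the cycling call and in these levels was not tested.

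**Figure D3:**
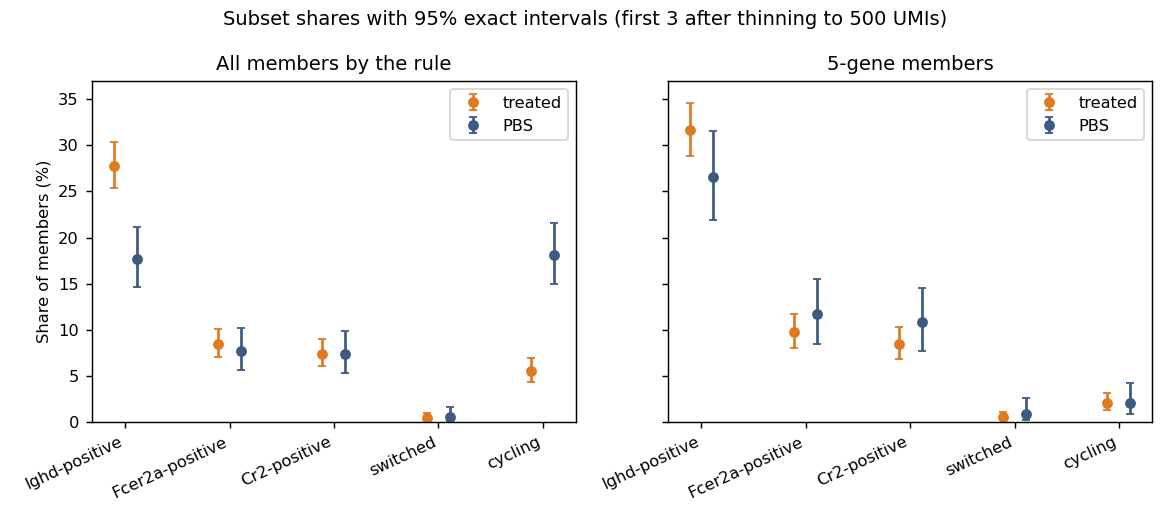
Points give the percent of members in each subset in the treated (orange) and PBS (blue) library with 95% exact intervals of counting error, for all members by the rule (left) and for 5-gene members (right). The cycling shares of 5.53% and 18.1% among all members are 2.08% and 2.04% among 5-gene members, and the gap in Ighd narrows.

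Across genes, the summed 5-gene members of the libraries were close. Of 5022 genes with at least 50 UMIs over both libraries, 402 (8.0%) were at least 1.5-fold higher and 211 (4.20%) at least 1.5-fold lower in treated members; such genes are called higher or lower below, and no gene was tested. A call rests on the ratio alone, and at low counts its interval can still include no difference. The median log2 ratio of all measured genes was 0.04. Over all members 1512 of 8492 genes (17.8%) were higher and 1666 (19.6%) lower, with a median of -0.07. Of the B identity list, 29 of 30 measured genes were higher over all members, with a median log2 ratio of 1.52. In 5-gene members 0 of 30 were higher or lower, with a median of -0.09. The list includes the genes of the rule, of which all but Ebf1 chose the 5-gene members. Its values are thus partly fixed by that choice. Of 27 B cell receptor signalling genes, 1 was higher, Fcgr2b, and 1 lower, Ptpn6, a phosphatase that restrains the receptor, with a log2 ratio of -0.74. The median of that list was 0.02 in 5-gene members and 1.47 over all members. Counts of 0 of 30 and 2 of 27 lie at or under the 8.0% and 4.20% of all genes.

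**Figure D4:**
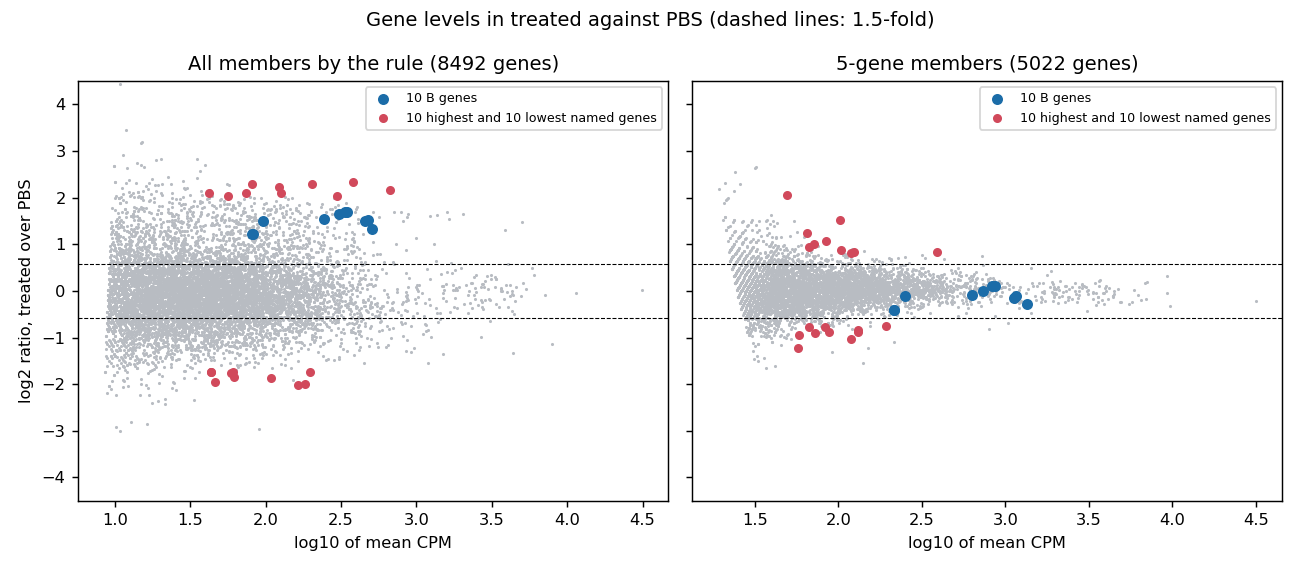
Each point is a measured gene, by the log10 of its mean CPM (horizontal) and its log2 ratio of treated over PBS (vertical), in all members (left, 8492 genes) and in 5-gene members (right, 5022 genes); dashed lines mark 1.5-fold. The 10 B genes in blue lie above the upper line in all members and between the lines in 5-gene members. Cd79a, Cd79b, Pax5, Bank1 and Blk are among them and also chose the 5-gene members.

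The 10 highest and 10 lowest genes that met fixed limits on level and on the share of cells were named in 5-gene members. The highest was Naaladl2, a peptidase-like gene, with 116 UMIs in treated and 11 in PBS members, 79.8 and 19.3 CPM, a ratio of 4.14. Next was Adgrd1, an adhesion receptor, at 151 and 52.6 CPM, a ratio of 2.87, and then Aida at 90.8 and 38.5 CPM, a ratio of 2.36. Tecpr2 was at 114 and 54.3 CPM, a ratio of 2.09. Fcgr2b, the inhibitory IgG Fc receptor of B cells, was at 94.9 and 47.3 CPM, a ratio of 2.01. Ythdc2, Ube2g1, Sik3, Fcf1 and Magoh completed the list with ratios of 1.92 to 1.75. Sik3, a kinase, rested on the most molecules, with 723 and 160 UMIs and 497 and 280 CPM.

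Several of these were also higher in treated barcodes of other kinds. In T barcodes the log2 ratio was 1.19 for Naaladl2, 1.14 for Adgrd1, 1.41 for Tecpr2, 1.86 for Fcgr2b and 0.46 for Sik3. In macrophage barcodes (at least 5 C1q UMIs, no Cd3 UMI) it was 0.83 for Naaladl2, 0.95 for Adgrd1, 0.84 for Tecpr2, 0.69 for Fcgr2b and 0.85 for Sik3. Aida, Ube2g1, Fcf1 and Magoh lay between -0.25 and 0.16 in both. In kept barcodes that were not members, Fcgr2b stood at 107 CPM in treated and 46.0 CPM in PBS, and Naaladl2 at 65.3 and 31.2 CPM. Adgrd1 stood there at 121 and 56.3 CPM and Tecpr2 at 77.8 and 39.0 CPM. The levels of these genes were thus not particular to the members. Sik3, at 188 and 123 CPM, and Ythdc2, at 33.0 and 31.2 CPM, were lower there than in 5-gene members. Whether the ratios of B, T and macrophage barcodes differ was not tested.

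At the low end, Paics, an enzyme of purine synthesis, was at 34.4 CPM in treated and 80.6 CPM in PBS 5-gene members, a ratio of 0.427. Hist1h1e, a linker histone, was at 77.7 and 159 CPM, a ratio of 0.487; Hist1h2be reaches over its end in the annotation, so its reads may be shared. Spopl, Trio, Snd1, Vars (a valine tRNA synthetase), Pacs1, Kpna3 and Stxbp3 had ratios of 0.518 to 0.589. Sept1, a septin of lymphocytes, was at 144 and 242 CPM, a ratio of 0.595, with 209 and 138 UMIs. The log2 ratio of Hist1h1e was also -1.14 in T and -0.56 in macrophage barcodes, while that of Paics was -0.27 and 0.25.

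Over all members other genes were named by the same limits. The highest were Plac8, Gem, Cd86, Ms4a4c, Satb1, Itga4, Fam169b, Abcg1, Inpp5d and Lpxn, with ratios of 5.04 to 4.10. The lowest were H19, Mmp16, Medag, Tmtc2, Robo1, Ubd, Prkd1, S100a1, Olfr843 and Slit2, with ratios of 0.247 to 0.300. In 5-gene members these last had 0 to 15 UMIs in treated and 1 to 19 in PBS, and none reached the 50 UMIs needed to be measured. Of the highest, Plac8 remained 1.67-fold higher in 5-gene members, Ms4a4c 1.64-fold, Cd86 1.62-fold, Gem 1.55-fold and Abcg1 1.52-fold, and the other 5 were under 1.5-fold.

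Among follicular genes, which hold resting B cells in follicles, 1 of 15 was higher and 0 lower in 5-gene members, with a median log2 ratio of 0.01. The gene was S1pr1, the receptor by which lymphocytes leave tissue, with 142 and 34 UMIs and a log2 ratio of 0.71 (0.16 to 1.30). Satb1 was at 1673 and 1186 CPM, a log2 ratio of 0.50, and was found in 49.4% and 38.8% of thinned members. Ccr7, which guides cells to T zones, was at 374 and 356 CPM, and Cxcr5, the receptor for the follicle chemokine, had 225 and 100 UMIs. In T barcodes the log2 ratio was 1.62 for S1pr1 and 1.54 for Satb1. Of 12 measured homing genes, S1pr1 was higher and the integrin chain Itgb7 lower, with 37 and 27 UMIs and a log2 ratio of -0.89. Of 12 quiescence factors 0 were higher or lower. Of 7 marginal zone genes, Plac8, Cd36 and Pik3r4 were higher and Rapgef4 lower, around a median of 0.05, beside 8.0% and 4.20% of all genes. Plac8 stayed past 1.5-fold under all 10 alternatives, Cd36 under 3, with a lowest log2 ratio of 0.15, Pik3r4 under 7 and Rapgef4 under 8. S1pr1 stayed past it under 8, with a lowest of 0.34.

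Antigen presentation genes were abundant in both libraries. Cd74 was at 8577 CPM in treated and 10718 CPM in PBS 5-gene members, with a median of 11 and 18 UMIs per cell, and a log2 ratio of -0.32. H2-Aa, a class II chain, was at 4760 and 4637 CPM and H2-Ab1 at 3759 and 3885 CPM. None of the 11 measured class II genes was higher or lower, and their median was -0.05. Over all members the median was 1.49 and 11 of 12 were higher, beside 17.8% of all genes. Of 8 measured costimulatory and checkpoint genes, 2 were higher and 2 lower, beside 8.0% and 4.20% of all genes. Their median log2 ratio was -0.22. Cd86, a ligand of CD28, was higher with 766 and 186 UMIs and a log2 ratio of 0.69 (0.46 to 0.93), and so was Cd274 (PD-L1) with 150 and 37 UMIs and 0.67. Tnfrsf14 and Icosl were lower with 37 and 23, and 38 and 23 UMIs. At these counts the intervals of the Tnfrsf14 and Icosl ratios included no difference. Of 10 alternatives, Cd86 stayed past 1.5-fold under 9, Cd274 under 6, with a lowest log2 ratio of 0.43, Tnfrsf14 under 9 and Icosl under 8. In macrophage barcodes the log2 ratio of Cd86 was 0.43, and in T barcodes it was 0.98. Of 6 measured lymphotoxin and BAFF genes 0 were higher or lower; Ltb, which encodes lymphotoxin beta, stood at 184 and 263 CPM, a log2 ratio of -0.51, and Lta had 10 and 6 UMIs.

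Of 16 measured activation genes, 3 were higher, Egr2, Cd86 and Traf1, and 0 lower, beside 8.0% and 4.20% of all genes, with a median log2 ratio of 0.11. Egr2, an early response factor, had 62 UMIs in treated and 5 in PBS 5-gene members, a log2 ratio of 2.28, and Traf1 96 and 25. The interval of the Traf1 ratio included no difference. Egr2 stayed past 1.5-fold under all 10 alternatives and Traf1 under 5, with a lowest log2 ratio of 0.27. Cd69 stood at 839 and 729 CPM and Cd83 at 1080 and 1220 CPM. In T barcodes the log2 ratio of Egr2 was 1.03 and in macrophage barcodes 0.75. Of 15 immediate early genes only Atf3 was higher, with 116 and 19 UMIs and a log2 ratio of 1.26, against -0.12 in T and 0.08 in macrophage barcodes.

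Type I interferon genes, which cells raise against viruses and nucleic acids, had a median log2 ratio of 0.38 over 15 measured genes in 5-gene members, 3 of them higher and 0 lower, beside 8.0% and 4.20% of all genes. Only the monocyte list had a higher median, 0.45 over 6 measured genes, and the median of all genes was 0.04. Ifit3 had 87 UMIs in treated and 11 in PBS members, 59.9 and 19.3 CPM, a log2 ratio of 1.63 (0.72 to 2.69). Irf7, a master factor of the response, had 50 and 8 UMIs, a log2 ratio of 1.29, and Ifit2 47 and 12, a log2 ratio of 0.62. The interval of the Ifit2 ratio included no difference. Ifit3 stayed past 1.5-fold under all 10 alternatives, Irf7 under 8, with a lowest log2 ratio of 0.43, and Ifit2 under 6, with a lowest of 0.38. After thinning, Ifit3 was found in 3.11% of treated and 0.875% of PBS members, against 2.54% and 1.59% of T barcodes. In other barcodes these ratios were lower: the log2 ratio of Ifit3 was -0.03 in T, -0.29 in macrophage and -0.48 in Ptprc-negative barcodes, and that of Irf7 was 0.15, -0.11 and -0.28. Over all members the list median was -0.33, with 4 of 20 genes higher and 7 lower, beside 17.8% and 19.6% of all genes. The difference between B and other barcodes was not tested.

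Stress and metabolic lists had median log2 ratios from -0.18, for heat shock, to 0.03, for p53 targets, beside 0.04 for all genes. Of 11 measured redox genes 2 were higher and 2 lower, beside 8.0% and 4.20% of all genes. Gclc, which makes glutathione, and Nfe2l2 were higher with 84 and 15, and 164 and 40 UMIs. Gpx4 and Sod1 were lower with 102 and 65, and 77 and 48 UMIs. Gclc stayed past 1.5-fold under all 10 alternatives, Nfe2l2 under 7, with a lowest log2 ratio of 0.15, Gpx4 under 9 and Sod1 under 8. Of 18 oxidative phosphorylation genes 0 were higher and 1 lower, with a median of -0.13. Of 8 heat shock genes 1 was higher, and of 6 measured p53 targets 1, Cdkn1a, with 51 and 12 UMIs. The interval of the Cdkn1a ratio included no difference. Of 7 measured S phase genes Rrm2 was lower, with 41 and 36 UMIs and a log2 ratio of -1.16. The S phase median was -0.31, and -0.03 when genes with at least 10 UMIs were measured.

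Genes of other cells moved with the library in 5-gene members. Col3a1 had 105 UMIs in treated and 120 in PBS members, a log2 ratio of -1.54, and Dcn, a matrix proteoglycan, 130 and 120, a log2 ratio of -1.23. Lgals1, a galectin abundant in tumour cells, was at 577 and 1010 CPM, and at 3948 and 5622 CPM in T barcodes. On the myeloid side Ly6c2 had 56 and 5 UMIs, with log2 ratios from 0.25 to 2.14 over 10 alternatives, Spp1 80 and 11, and Lyz2 was at 184 and 102 CPM, a log2 ratio of 0.86. Without the barcodes of the highest Scrublet scores the log2 ratio of Lyz2 was -0.44 and that of Spp1 -0.98, with 23 treated and 5 PBS barcodes removed. Fcer1g, another myeloid gene, went from 0.89 to -0.33. Under the same change Plac8, Cd86, Ifit3 and Egr2 stayed higher. The part of free RNA and doublets in the lists above was not tested further.

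**Figure D5:**
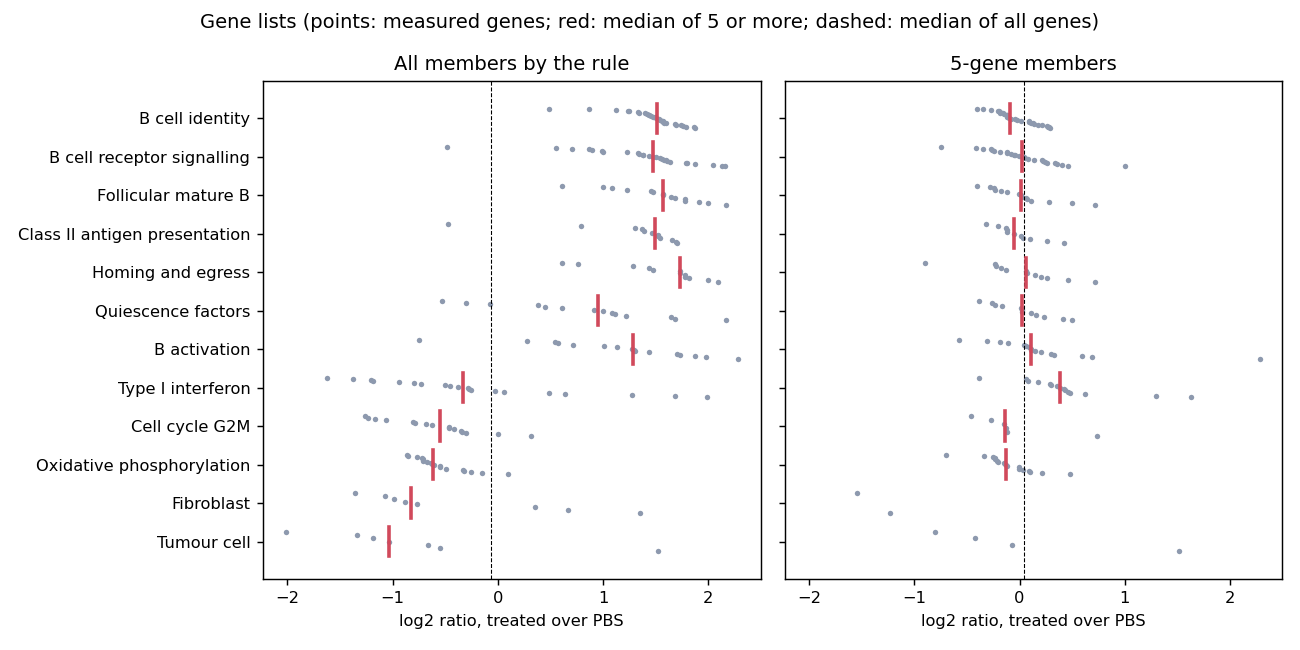
Points give the log2 ratio of treated over PBS (horizontal) of each measured gene of 12 lists (from top to bottom) in all members (left) and 5-gene members (right); red bars mark medians of lists with 5 or more measured genes, and the dashed line the median of all genes. B identity genes, which include the genes of the rule, lie near 1.52 on the left and near -0.09 on the right. Type I interferon genes lie near 0.38 on the right.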

How the data were processed

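Tumour suspensions were made into 3′ libraries with the MobiCube kit and sequenced on an Illumina NovaSeq, per the labels' protocols. STAR and mm10 are named in the submitters' processing notes; no source used here gives the counter, its strand setting or the annotation. The deposited matrices hold whole, unnormalized counts of UMIs for each barcode over 32285 genes, of which 32158 matched GENCODE M21 by identifier. Filtered barcodes were deposited, down to 500 UMIs.

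Members were chosen by the stated limits (200 genes, 20% mitochondrial UMIs, a score of 2 and 0.1%). The members and the 46 gene lists were chosen with earlier results of these data known, and the 5-gene members after the values were seen. UMIs were summed per library and set, and CPM ratios were given exact conditional binomial intervals; shares have Clopper-Pearson intervals, all at 95%. Genes needed 50 UMIs over both sums to be measured, and called meant 1.5-fold. For shares of cells, every barcode was thinned to 500 UMIs, and no member was left out by this. Named genes were the rule genes, immunoglobulin and subset genes; the 10 highest and 10 lowest ratios among genes with 50 CPM and a UMI in 10% of members of 1 library and no level 5 times higher in other barcodes, leaving out mitochondrial, ribosomal, haemoglobin, unnamed and variable genes; and in each list the members with the largest ratios and defining members. Doublets were not removed; as an alternative the highest Scrublet scores (0.8% per 1000 barcodes) were. Intervals and thinning were tested on simulated data. Python 3.11.15, numpy 2.4.6, scipy 1.17.1, pandas 2.3.3 and scanpy 1.11.5 were used.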

Additional observations from a re-analysis of the deposited data

How the results depend on the processing

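With 1 library per group no replicate could be left out, and no paired analysis was possible because each group is 1 library. Alternatives on 5-gene members, and leaving Ebf1 out, were chosen after seeing the data. For the share of all members the ratio of treated over PBS was 1.78 with at least 1000 UMIs, 1.81 among barcodes with a Ptprc UMI, 2.58 when the rule was applied after thinning and 2.80 with Ebf1 left out. For 5-gene members it was 2.34 with at least 1000 UMIs, 1.79 among Ptprc barcodes and 3.03 after thinning. The Ighd ratio of all members was 1.22 unthinned and 1.19 with Ebf1 left out, and that of 5-gene members 0.906 unthinned. The cycling ratio of all members was 0.772 after thinning and turned to 1.02 with Ebf1 left out. The switched share gave no ratio after thinning, since 0 PBS cells were left. The Fcer2a and Cr2 ratios of 5-gene members stayed between 0.711 and 0.839 and between 0.765 and 0.967.

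Counts of genes higher and lower over all members were 2548 and 2647 of 11949 measured genes with at least 10 UMIs. After thinning they were 381 and 312 of 3127. With equal weight per cell 721 of 8492 were higher. With Ebf1 left out 402 and 211 of 5022 were higher and lower. The number of measured genes changes with the setting, so these counts cannot be compared directly. In 5-gene members the counts higher and lower were 1405 and 1106 of 9126 measured genes with at least 10 UMIs, and 214 and 108 of 2393 after thinning. With Ebf1 left out the log2 ratios turned to -0.27 for Cd79a, -0.084 for Cd79b, -0.12 for Blk, -0.12 for Ighm, -0.0077 for Ighd, -0.41 for Fcer2a, -0.42 for Cr2 and -0.16 for Iglc2. So did the list medians, to -0.091 for B identity, -0.048 for class II, -0.22 for costimulation and -0.27 for lymphotoxin and BAFF. After thinning, Cr2 over all members turned to -0.11 and the monocyte list to -1.36. Leaving Ebf1 out changes which members are counted; for the other alternatives the cause was not tested.

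In 5-gene members 686 of 730 single-gene values stayed within the interval of the value reported, 34 lay outside it and 10 turned. Spp1 turned to -0.22 with equal weight per cell, -1.21 after thinning, -0.98 without the highest Scrublet scores and -1.37 in barcodes of 1000 to under 2000 UMIs. Lyz2 turned to -0.44 without the highest Scrublet scores and -0.50 in that depth range, Fcer1g to -0.33 without those scores, Birc5 to -0.31 after thinning and -0.84 in that range, and Entpd1 to -0.63 after thinning. Over 10 alternatives Ifit3 stayed between 1.40 and 2.07, Irf7 between 0.43 and 1.29, Egr2 between 1.04 and 2.63, Plac8 between 0.61 and 1.08 and Cd86 between 0.38 and 0.80. Depth limits the subset calls: a median of 1202 and 1523 UMIs per 5-gene member leaves single UMIs to decide them.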
